A study of Mus musculus with 2 samples.

Results

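Messenger RNAs of 76 receptors for amines, peptides, prostaglandin E2 and adenosine were examined in adrenal glands of male mice. The receptors were chosen by gene symbol, under a rule set with earlier results of these data known. The rule took protein-coding genes for adrenergic, dopamine, serotonin, muscarinic, histamine, opioid, somatostatin, neuropeptide Y and galanin receptors. It also took those for VIP and PACAP, vasopressin and oxytocin, endothelin, corticotropin-releasing hormone (CRH), tachykinin, prostaglandin E and adenosine receptors. All these receptors made up 76 of the 21888 nuclear protein-coding genes and of the 55536 genes in the deposited gene table. By ligand, 37 bind an amine, 31 a peptide, 4 a prostaglandin and 4 the nucleoside adenosine, and 2 of the amine receptors (Htr3a and Htr3b) form ion channels instead of coupling to a G protein.

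The study measured total RNA in adrenal tissue of B6CASTF1/J males aged 2 months, an F1 hybrid of laboratory mouse strains obtained from The Jackson Laboratory. Its 2 libraries, labelled biological replicates 1 and 2, formed a single group with no treatment, each from 300 ng of RNA with ribosomal RNA reduced, a kit that keeps the strand, and ERCC spike-in RNAs. The sample descriptions number the animals differently, whereas the library descriptions and the donor field are the same for both, so the spread between libraries may be partly technical. A single group allows no contrast of conditions.

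G protein-coupled receptors span the membrane and, when bound by a ligand, activate a G protein inside the cell: Gs raises cyclic AMP, Gi lowers it, and Gq releases calcium. In the adrenal gland, steroid-producing cells of the cortex and catecholamine-producing chromaffin cells of the medulla receive hormones from blood and transmitters from nerves, and neighbouring cells add local peptides, prostaglandins and adenosine. Acetylcholine and PACAP released by the splanchnic nerve drive catecholamine release, while endothelins and vasopressin are known to act on the cortex and its vessels.

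The libraries held 36182740 and 34149995 expected counts (reads assigned to genes, those shared between transcripts being divided), of which the receptors took 22229 and 20860, or 0.0614% and 0.0611%. All 11 cortex markers and all 12 chromaffin markers reached 1 TPM (a level corrected for transcript length and library size, the usual unit of abundance) in both libraries, led by Star at 5294 and 5939 TPM and Chgb at 727 and 643 TPM, in replicates 1 and 2. Fat was present too: all 8 white and all 8 brown adipocyte markers reached 1 TPM, led by Fabp4 at 1490 and 1068 TPM and by Ucp1 at 629 and 303 TPM. Over 17265 genes the libraries differed by more than sampling noise (chi-square per gene, 32.3), so they are not 1 library deposited again, and whether they share an animal cannot be read from this. In bulk tissue, fewer cells of a type and less RNA per cell cannot be told apart.

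At a threshold of 1 TPM in both libraries, 20 of the 76 receptors (26.3%) were present, against 54.4% of protein-coding genes. Adora1, Adrb3, Ednrb and Adcyap1r1 reached 10 TPM in both, which is 4 receptors (5.26%) against 25.6% of protein-coding genes. The median receptor stood at 0.185 TPM, against 1.91 TPM for protein-coding genes. The 76 levels summed to 169 TPM in each library, with 66% of the sum on the 5 highest members and 94.5% on the 20 highest. The other 56 had a mean under 1 TPM. Of these, 35 held more than 3 counts in at least 1 library, which is 46.1% of the 76 receptors. Under the same conditions stood 16.4% of all protein-coding genes. The remaining 21 held 3 or fewer counts in both, which is 27.6% of the receptors against 28.4% of protein-coding genes. Of these 21, 12 were at 0 counts in both libraries, which is 15.8% of the receptors against 21.6% of protein-coding genes. Of the 12, 8 were also at 0 in the read-based tables (a second quantification of the same libraries). A count of 0 allows up to 3 counts, or 0.0829 and 0.0878 CPM (share of the library's counts, scaled as TPM is).

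**Figure D1:**
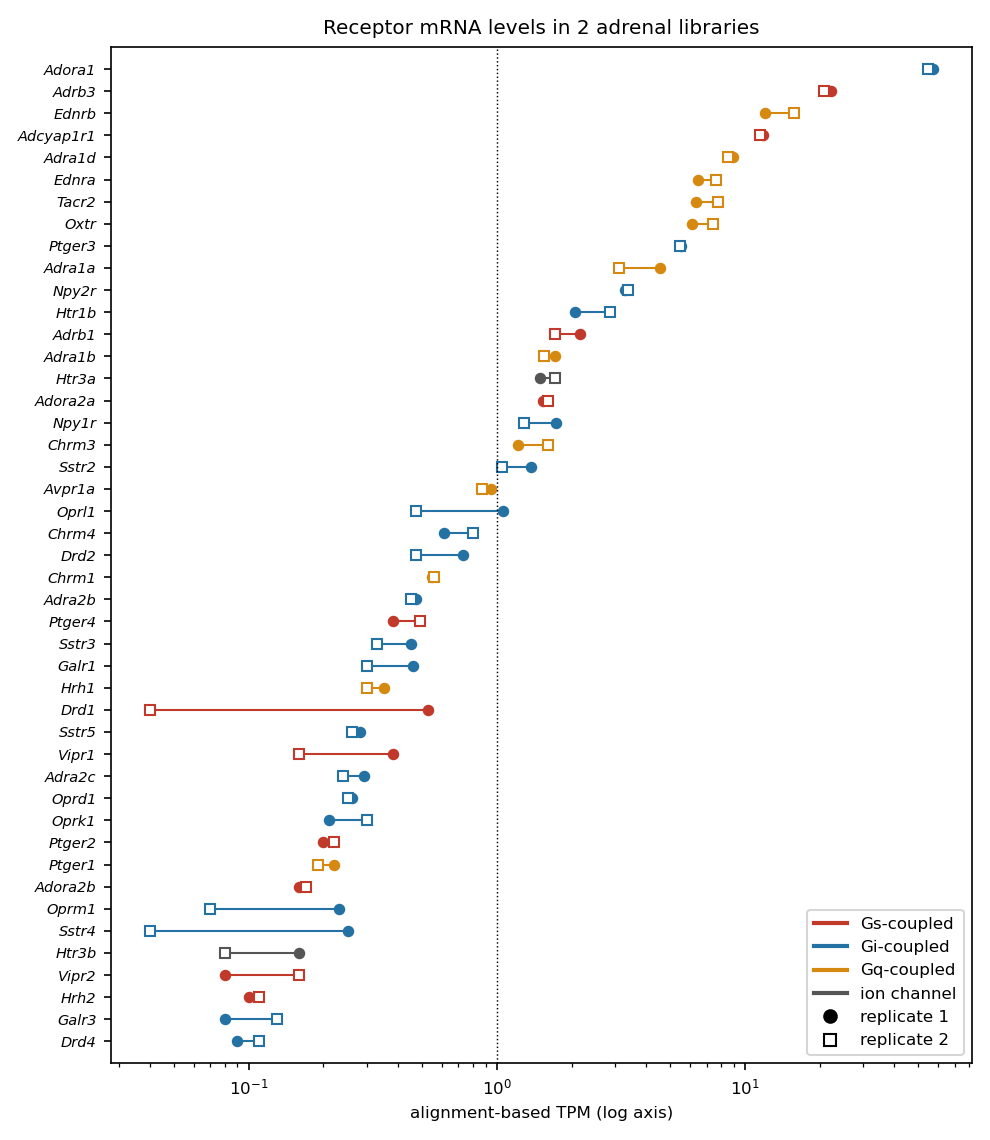
TPM of receptors with a mean of at least 0.1 TPM (log axis, 1 receptor not plotted) in replicate 1 (filled circles) and replicate 2 (open squares), coloured by the main G protein it couples to; the dotted line marks 1 TPM. Adora1 stands alone at 57.2 and 54.5 TPM, and Drd4, the lowest shown, at 0.09 and 0.11 TPM.

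Adenosine receptors held more mRNA than any other family, at a summed 57.7 ± 1.84 TPM (SD, n = 2), and 96.8% of it was Adora1, the Gi-coupled A1 receptor. Adora1 (ENSMUSG00000042429.8, chr1:134199223-134235431, minus strand, GRCm38) stood at 57.2 TPM in replicate 1 and 54.5 TPM in replicate 2, from 9397 and 8415 counts. Its lower value was above the higher value of every other receptor. The Gs-coupled A2a receptor, Adora2a, stood at 1.54 and 1.61 TPM. Adora2b (11 counts in each library) and Adora3 (8 and 6 counts) were near the limit of detection. The read-based tables gave Adora3 18.5 and 19.5 estimated counts. Nt5e, the surface enzyme that makes adenosine from AMP, stood at 3.94 and 4.02 TPM, and Entpd1, which acts before it on ATP, at 10.5 and 10.8 TPM.

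Transcripts of Adora1 start at separate places that leave the protein unchanged: the 3 transcripts with a whole coding sequence each hold 981 coding bases. All transcripts starting upstream, at 134235364 to 134235431, took 58.7% and 57.4% of the gene's TPM. They include ENSMUST00000187631.1, which has 535 coding bases and took 1.29% and 1.25%. The downstream one (ENSMUST00000169927.1), which starts at 134234578, took 41.3% and 42.6%. The levels so far came from aligned reads, and the read-based tables, which the deposited file notes trace to the raw reads, gave other shares. Read-based shares of the downstream transcript were 17.2% and 17.1%, so the share depended on the quantification more than on the library. RefSeq places starts of Adora1 at 134235457 and 134234856. The 250 bases before each RefSeq start are shown, on the minus strand of GRCm38.p6, with capitals for the GC box (GGGCGG on either strand).
Adora1 upstream start, chr1:134235458-134235707: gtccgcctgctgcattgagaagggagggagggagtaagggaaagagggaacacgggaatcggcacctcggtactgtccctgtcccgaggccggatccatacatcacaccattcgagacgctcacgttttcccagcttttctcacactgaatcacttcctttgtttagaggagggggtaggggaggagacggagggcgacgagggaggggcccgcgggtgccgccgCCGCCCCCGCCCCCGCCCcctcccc
Adora1 downstream start, chr1:134234857-134235106: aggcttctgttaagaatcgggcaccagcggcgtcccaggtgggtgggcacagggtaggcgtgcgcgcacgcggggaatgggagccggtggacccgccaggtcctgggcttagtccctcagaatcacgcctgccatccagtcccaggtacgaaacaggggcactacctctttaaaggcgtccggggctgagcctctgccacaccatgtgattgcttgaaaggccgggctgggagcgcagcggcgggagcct
The upstream window holds GC boxes next to each other just before the RefSeq start, and the downstream window holds none. The downstream window does not lie directly before the start of ENSMUST00000169927.1, at 134234578, so it does not describe that start.

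Adrenergic receptors, which bind the adrenaline and noradrenaline that chromaffin cells secrete, summed to 39.8 ± 2.68 TPM, with 6 of 9 members at 1 TPM in both libraries. Adrb3, the Gs-coupled beta3 receptor best known from fat cells, led with 22.2 and 20.8 TPM (ENSMUSG00000031489.15, chr8:27225776-27250616, minus strand). The beta1 receptor, Adrb1, was far lower at 2.17 and 1.72 TPM, with a library range that did not meet that of Adrb3. Among the Gq-coupled alpha1 receptors, Adra1d stood at 8.92 and 8.51 TPM, Adra1a at 4.55 and 3.11 TPM and Adra1b at 1.72 and 1.55 TPM. These 3 did not overlap one another between libraries. The Gi-coupled alpha2 receptors, which act as brakes on catecholamine release in many tissues, were all under 1 TPM: Adra2b stood at 0.47 and 0.45 TPM, Adra2c at 0.29 and 0.24 TPM and Adra2a at 0.08 and 0.09 TPM. Of the noradrenaline and adrenaline pathway, Th, the first enzyme of catecholamine synthesis, stood at 395 and 334 TPM, Dbh at 184 and 161 TPM and Pnmt, which makes adrenaline, at 174 and 155 TPM.

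Mouse Adrb3 transcripts encode receptors with different last residues, and both coding ends are shown. The coding sequences share their first 1163 bases and then part. Each line gives the last 20 shared bases in lower case and the transcript's own coding end, through the stop codon, in capitals (minus strand, GRCm38).
Short coding end, ENSMUST00000081438.9, chr8:27226754-27226793: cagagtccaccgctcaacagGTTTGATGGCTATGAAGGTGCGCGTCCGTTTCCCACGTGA
Long coding end, ENSMUST00000117565.1, chr8:27226845-27226896: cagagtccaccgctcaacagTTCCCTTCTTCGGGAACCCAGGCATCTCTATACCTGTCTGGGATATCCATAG
The pair of transcripts with the short end took 94.3% and 91.6% of the gene's TPM. The long end, of 52 bases against 40, took 0% and 2.26%, from 0 and 20.9 expected counts. In the read-based tables it took 5.86% and 3.26%, so its presence in replicate 1 rests on the quantification. Noncoding transcripts took 5.67% and 6.16%.

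Receptors for the other amines were low. Acetylcholine acts on chromaffin cells mainly through nicotinic channels, which the chosen symbols leave out, and also through muscarinic receptors. Among the 5 muscarinic receptors only Chrm3 (Gq) passed 1 TPM, at 1.22 and 1.6 TPM. Chrm4 stood at 0.61 and 0.8 TPM, Chrm1 at 0.55 and 0.56 TPM from 107 and 102 counts, Chrm5 had 1 count in each library and Chrm2 had 0. Chat and Slc18a3, which make acetylcholine and load it into vesicles, were at 0 counts.

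Of 14 serotonin receptors, 2 passed 1 TPM: the Gi-coupled Htr1b at 2.06 and 2.85 TPM and the channel subunit Htr3a at 1.49 and 1.71 TPM. The remaining 12 were each at or under 0.16 TPM, and Htr1a, Htr1f and Htr2c had 0 counts. Htr4, which in human adrenal glands mediates serotonin's action on the cortex, had 1 and 0 counts. The serotonin transporter Slc6a4 stood at 14.5 and 13 TPM, while the enzymes that start serotonin synthesis, Tph1 (0 and 1 counts) and Tph2 (2 and 0 counts), were nearly absent.

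Dopamine and histamine receptors had no member at 1 TPM. Drd2, a Gi-coupled dopamine receptor, stood at 0.73 and 0.47 TPM, and Drd1 had 15 and 5 counts. Drd4 had 6 and 11 counts, and Drd3 and Drd5 had 0. Hrh1 led the histamine receptors at 0.35 and 0.3 TPM, Hrh2 had 15 counts in each library, Hrh3 had 2 and 4, and Hrh4 had 0. Hdc, which makes histamine, stood at 0.58 and 0.8 TPM. Of the 7 mast cell markers none reached 1 TPM in both libraries, led by Tpsb2 at 1.1 and 0.81 TPM.

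Among the peptide receptors, the pair of endothelin receptors summed to 20.9 ± 3.56 TPM. Ednrb (ENSMUSG00000022122.15, chr14:103814625-103844402, minus strand) stood at 12 and 15.8 TPM and Ednra at 6.46 and 7.66 TPM. Ednrb was higher in both libraries, and each receptor was higher in replicate 2. Both couple mainly to Gq; Ednra is known from smooth muscle and Ednrb from endothelium. Of their ligand genes, Edn3 stood at 7.83 and 7.34 TPM, Edn1 at 0.45 and 0.28 TPM and Edn2 at 0.02 and 0.04 TPM. Ece1, the protease that releases active endothelin, stood at 65.8 and 86.4 TPM.

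Adcyap1r1, the Gs-coupled PAC1 receptor for the neuropeptide PACAP, stood at 11.8 and 11.5 TPM (ENSMUSG00000029778.12, chr6:55451978-55501451, plus strand). It made up 96.8% of its family, in which the VIP receptors Vipr1 (18 and 17 counts) and Vipr2 (7 and 12 counts) were low. The ligand genes were nearly silent in the gland, with 0 and 1 counts for Adcyap1 and 10 and 5 for Vip.

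PAC1 forms differ by cassettes, known as hip and hop, in the loop of the receptor that meets the G protein, and their sequences are shown because the transcripts split on them. All lines start and end with the same 20 bases of the flanking exons in lower case, and capitals mark the cassette (plus strand, GRCm38).
No cassette, ENSMUST00000070756.11: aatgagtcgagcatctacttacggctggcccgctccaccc
Upstream cassette, chr6:55487659-55487742: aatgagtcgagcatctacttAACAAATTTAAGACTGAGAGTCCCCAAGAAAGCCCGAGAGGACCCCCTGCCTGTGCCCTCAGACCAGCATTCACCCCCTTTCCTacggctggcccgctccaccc
Downstream cassette, chr6:55491227-55491310: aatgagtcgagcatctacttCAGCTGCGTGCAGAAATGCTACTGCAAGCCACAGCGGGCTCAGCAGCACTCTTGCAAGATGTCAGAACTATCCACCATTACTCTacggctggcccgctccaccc
Short downstream cassette, chr6:55491230-55491310: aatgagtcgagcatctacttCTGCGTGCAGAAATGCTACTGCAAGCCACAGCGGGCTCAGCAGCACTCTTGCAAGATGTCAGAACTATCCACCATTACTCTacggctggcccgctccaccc
The cassettes hold 84, 84 and 81 bases, all multiples of 3. Transcripts without a cassette took 61.9% and 63.7% of the gene's TPM, and those with any cassette 24.3% and 24.2%. The downstream cassette alone took 17.1% and 18.9%, and its short form 6.2% and 4.51%. Transcripts with the upstream cassette took 1.02% and 0.78%, from 6.75 and 4.87 expected counts. The upstream line shown is from ENSMUST00000165857.7, which had 0 counts in both libraries. All of the upstream share lay on ENSMUST00000167234.7. That transcript has 1575 coding bases against 1491 and 17 exons against 16, so the line shown need not be its sequence. Fragments with a partial coding sequence held the other 13.8% and 12.1%. The read-based tables put 38.3% and 39.1% on any cassette and 2.75% and 2.92% on the fragments. In both quantifications and both libraries the form without a cassette led, followed by the downstream cassette.

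Oxtr, the Gq-coupled oxytocin receptor, stood at 6.09 and 7.43 TPM (chr6:112473683-112489943, minus strand). Its whole coding sequence lies on ENSMUST00000053306.7, at 4.98 and 5.25 TPM. A second transcript with 228 coding bases against 1167, ENSMUST00000204027.1, held 18.2% and 29.4% of the gene's TPM, from 156 and 287 expected counts. The read-based shares of this short transcript, 16.5% and 32.3%, were also higher in replicate 2. The vasopressin receptors were lower: Avpr1a stood at 0.95 and 0.87 TPM, and Avpr1b and Avpr2 had 0 counts. Read-based tables gave Avpr1b 6 and 4 counts. Avp had 0 counts and Oxt 1 in each library.

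Tacr2, the Gq-coupled receptor for neurokinin A, stood at 6.32 and 7.8 TPM (chr10:62252438-62265990, plus strand), where the substance P receptor Tacr1 had 0 counts and Tacr3 had 0 and 1. The read-based tables gave Tacr1 4.47 and 2.13 estimated counts. Tac1, the precursor of both peptides, had 2 and 0 counts.

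Neuropeptide Y receptors are Gi-coupled. Their ligand gene Npy, whose peptide chromaffin cells store, stood at 443 and 364 TPM. Npy2r stood at 3.28 and 3.39 TPM and Npy1r at 1.73 and 1.29 TPM, with no overlap between them. Npy5r had 8 and 6 counts, Npy4r 4 in each and Npy6r 0. For galanin, the ligand gene Gal stood at 35.6 and 27.8 TPM, Galr1 at 0.46 and 0.3 TPM, and Galr2 and Galr3 had at most 5.28 counts. Penk, the enkephalin precursor, stood at 16.7 and 14.1 TPM, and no opioid receptor passed 1 TPM in both libraries. Oprl1, the nociceptin receptor, reached it in replicate 1 alone, at 1.06 and 0.47 TPM from 58 and 41 counts. In replicate 1, 0.67 TPM of it lay on a noncoding transcript (ENSMUST00000151241.1) with 14.2 expected counts, which had 0 in replicate 2. Oprd1 stood at 0.26 and 0.25 TPM, Oprk1 at 0.21 and 0.3 TPM, and Oprm1 had 3 and 5 counts.

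Somatostatin receptors, which are Gi-coupled and restrain secretion in many glands, summed to 2.04 ± 0.467 TPM. Sstr2 stood at 1.37 and 1.05 TPM, Sstr3 at 0.45 and 0.33 TPM and Sstr5 at 0.28 and 0.26 TPM. Sstr4 had 13 and 2 counts and Sstr1 had 1 and 2. For CRH, the hypothalamic peptide that acts on the pituitary, Crhr1 and Crh had 0 counts and Crhr2 had 0 and 3. By contrast Mc2r, the receptor for pituitary ACTH and not one of the 76, stood at 99.7 and 99.1 TPM.

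Of the 4 prostaglandin E receptors only the Gi-coupled Ptger3 passed 1 TPM, at 5.52 and 5.46 TPM (ENSMUSG00000040016.16, chr3:157566892-157645888, plus strand). Ptger4 stood at 0.38 and 0.49 TPM, Ptger2 at 0.2 and 0.22 TPM and Ptger1 at 0.22 and 0.19 TPM. The prostaglandin synthases Ptgs1 and Ptges stood at 4.52 and 4.89 TPM and at 9.87 and 8.59 TPM, and inducible Ptgs2 at 0.3 TPM in each library. Ptger3 transcripts share 1010 coding bases and then encode different tails inside the cell, a known source of receptor variants. The lines give the last 20 shared bases in lower case and each coding end, through the stop codon, in capitals (plus strand, GRCm38). The long end is spliced from more than 1 exon, so its coordinates span an intron.
Short coding end, ENSMUST00000041175.12, chr3:157643877-157643955: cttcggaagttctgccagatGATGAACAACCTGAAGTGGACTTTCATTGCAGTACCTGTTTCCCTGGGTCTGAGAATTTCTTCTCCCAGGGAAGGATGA
Long coding end, ENSMUST00000173533.1, chr3:157641723-157643878: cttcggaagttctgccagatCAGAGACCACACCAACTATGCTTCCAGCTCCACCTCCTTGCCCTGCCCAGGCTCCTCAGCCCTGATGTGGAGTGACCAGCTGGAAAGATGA
The long end, of 91 bases, took 45.1% and 45% of the gene's TPM and the short end, of 79 bases, took 5.98% and 7.52%. Another transcript (ENSMUST00000196682.1), which retains an intron and has no coding sequence, took 48.9% and 47.5%. Coding transcripts held 51.1% and 52.5%, so the gene's TPM counts RNA that does not encode the receptor.

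**Figure D2:**
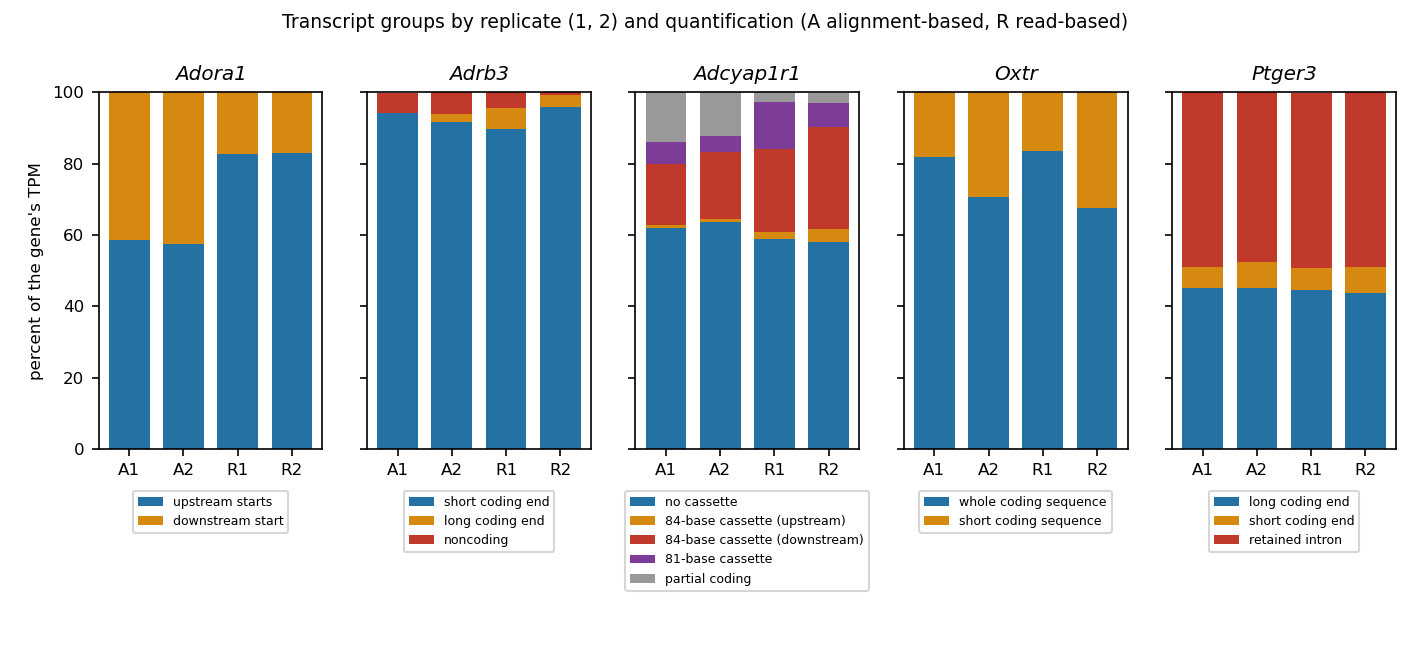
Percent of each gene's TPM on groups of its transcripts for Adora1, Adrb3, Adcyap1r1, Oxtr and Ptger3, in replicates 1 and 2 by the alignment-based (A1, A2) and read-based (R1, R2) tables; each bar is 1 library and sums to 100%. Bars of Ptger3 are alike in all 4, those of Oxtr differ between libraries, and those of Adora1 differ between quantifications.

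Of the 20 receptors at 1 TPM, 3 had a single annotated transcript and 17 had several. The same transcript led in both quantifications for 14 of the 17, and Adora1, Adrb3 and Ednrb were the exceptions. For Ednrb the leading alignment-based transcript, ENSMUST00000172237.1, held 46.5 ± 2.19% of TPM, whereas the read-based tables gave it 4.04% and 28.5%. The median leading share over the 17 was 71.1%. On average over the libraries, coding transcripts held under 90% of the TPM for Ptger3, Adra1b (80.8% and 73.5%) and Chrm3 (94.3% and 62.7%). The read-based tables gave 50.7% and 50.9% for Ptger3, 96.2% and 89.1% for Adra1b, 93.9% and 76.2% for Chrm3 and 93.5% and 85.9% for Adrb1, so Adra1b would leave this list and Adrb1 would join it.

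Summed by family, the order was adenosine, adrenergic, endothelin, then VIP and PACAP at 12 ± 0.255 TPM. Vasopressin and oxytocin receptors summed to 7.67 ± 0.891 TPM, tachykinin receptors to 7.06 ± 1.05 TPM and prostaglandin E receptors to 6.34 ± 0.0283 TPM. Neuropeptide Y receptors followed at 4.96 ± 0.247 TPM and serotonin receptors at 4.42 ± 0.707 TPM. Muscarinic receptors summed to 2.69 ± 0.41 TPM, opioid receptors to 1.43 ± 0.474 TPM and dopamine receptors to 0.985 ± 0.516 TPM. The last places were held by galanin at 0.545 ± 0.0919 TPM, histamine at 0.48 TPM and CRH receptors at 0.02 ± 0.0283 TPM. Library ranges overlapped between tachykinin receptors and both the vasopressin and oxytocin and the prostaglandin E receptors, and between neuropeptide Y and serotonin receptors. They also overlapped between opioid receptors and both the somatostatin and dopamine receptors. The ranges of galanin and histamine receptors met at 0.48 TPM. The CRH receptors aside, the leading member held from 52.4% (Chrm3) to 99.9% (Tacr2) of its family's sum.

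**Figure D3:**
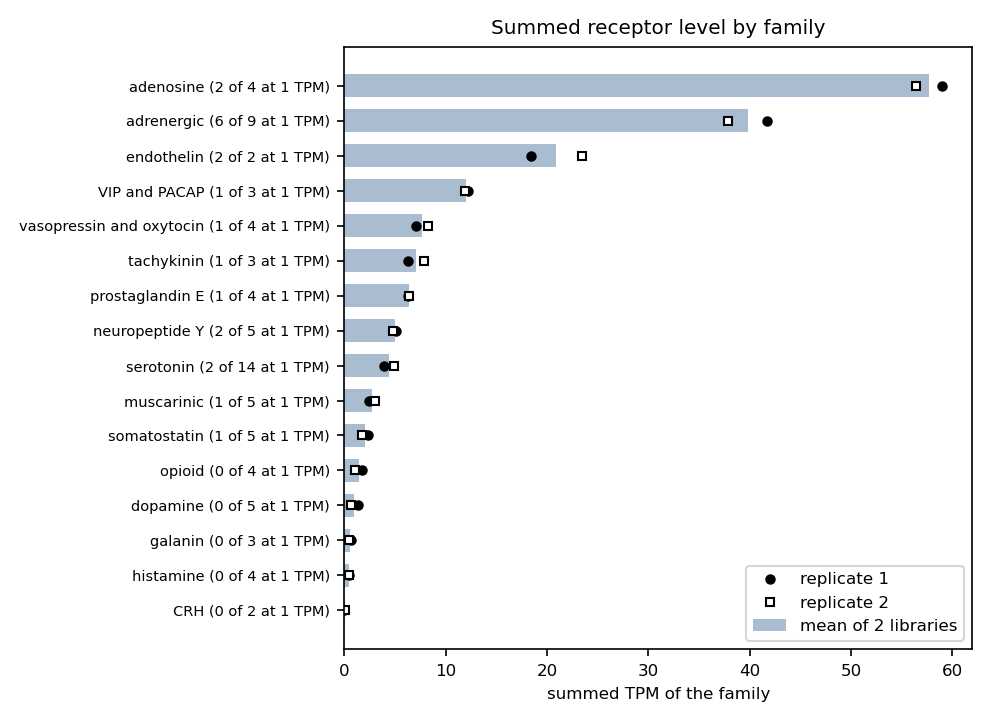
Summed TPM of the members of each receptor family in replicate 1 (filled circles) and replicate 2 (open squares), with the mean of the 2 libraries as a bar that starts at 0. Adenosine and adrenergic receptors stand at 57.7 and 39.8 TPM, and the opioid, dopamine, galanin, histamine and CRH families have no member at 1 TPM in both libraries.

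By the main G protein, Gi-coupled receptors took 44.4 ± 1.61% of the summed TPM (SD, n = 2), Gq 31.1 ± 2.53%, Gs 23.5 ± 0.982% and the channel subunits 1.02 ± 0.0579%. Htr5b was assigned to no class. The place of Gi rested on Adora1: without it Gq took 46.3%, Gs 35.1%, Gi 17% and the channels 1.52%. G protein alpha subunits were abundant, with 11 of 13 at 1 TPM. Gnas, which encodes the Gs alpha subunit, stood at 839 and 718 TPM, Gnai2 at 80.5 and 83.6 TPM, Gnai3 at 39.3 and 41.1 TPM and Gna12 at 35.1 and 36.4 TPM. Receptor kinases and arrestins, which switch receptors off, reached 1 TPM in 6 of 7 cases, led by Arrb1 at 18 and 18.8 TPM. Among RGS genes, which shorten G protein signals, 10 of 19 did so, led by Rgs2 at 120 and 151 TPM.

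Of 25 precursor genes of the peptide ligands, 4 reached 1 TPM in both libraries (Npy, Gal, Penk and Edn3), and 9 had 0 counts in both. Enzymes and transporters that make or remove the ligands reached it in 19 of 25 cases. Of 28 receptors and receptor partners for other peptides and lipids, 13 did, led by Mc2r, the natriuretic peptide receptor Npr1 at 83.8 and 90.6 TPM, the angiotensin receptor Agtr1a at 75.3 and 74.1 TPM and Ramp2 at 13.6 and 14.6 TPM.

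In the order of levels, neighbours from Adora1 to Ednra had library ranges that did not overlap. The ranges of Ednra and Tacr2 overlapped, as did those of Tacr2 and Oxtr, of Adra1a and Npy2r, and of every neighbouring pair from Htr1b down to Sstr2.

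Replicate 2 was set against replicate 1 as 1 library against 1 library, with intervals that cover counting error only. Over the 36 receptors with a mean of 20 or more counts, the log2 ratio of replicate 2 to replicate 1 ran from -0.73 to 0.37 with a median of -0.12, against -0.008 for 13749 protein-coding genes. With total-count scaling the medians were -0.05 and 0.07, from TPM -0.06 and 0.08, and at a mean of 100 or more counts -0.08 and -0.01. With TMM scaling the ratio was below 0 for 24 receptors and above 0 for 12. Of the 13749 protein-coding genes, 7118 were below 0 and 6631 above. Beyond counting error 9 were lower in replicate 2 (background 18.5% of genes) and 5 were higher (background 16.8%). None of the 20 receptors with a mean of 100 or more counts differed by over 2-fold, where 0.4% of genes did (0.204% higher and 0.196% lower).

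The 5 higher in replicate 2 were Htr1b, at 0.37 (95% interval 0.15 to 0.60), Ednrb at 0.27 (0.17 to 0.36), Tacr2 at 0.21 (0.04 to 0.38), Oxtr at 0.16 (0.03 to 0.28) and Ednra at 0.15 (0.02 to 0.28). Among the 9 lower in replicate 2, Adra1a had a log2 ratio of -0.63 (-0.80 to -0.45), from 691 and 445 counts. Adrb1 stood at -0.49 (-0.78 to -0.20), Npy1r at -0.51 (-0.84 to -0.18), Sstr2 at -0.59 (-1.04 to -0.15) and Drd2 at -0.70 (-1.30 to -0.13). Galr1, at -0.73 (-1.43 to -0.07), rested on 52 and 31 counts. Adora1 at -0.15 (-0.19 to -0.11) and Adrb3 at -0.23 (-0.33 to -0.13) were nearest to 0 of the 9. Adora2a, at -0.43 (-0.80 to -0.07), had a TPM ratio of 0.06 in the other direction, where 3 other transcripts of the gene entered its TPM in replicate 2, from 3.93 expected counts or fewer each.

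Cell type markers differed between the libraries as well. Brown adipocyte markers summed to 1603 and 820 TPM, and 7 of 8 were lower in replicate 2 (median log2 ratio -0.99). White adipocyte markers summed to 3818 and 2980 TPM, and 8 of 8 were lower (median -0.52). For chromaffin markers the median was -0.26 with 12 of 12 lower, for smooth muscle markers -0.33 with 8 of 8 lower, and cortex and endothelial markers 0.09 and 0.05. Over the other lists, medians ran from -0.77 for red cells to 1.37 for liver, whose markers reached 1 TPM in 1 of 6 cases. The part of these cell types in the receptor ratios, including those of Adrb3 and Adrb1, was not tested.

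**Figure D4:**
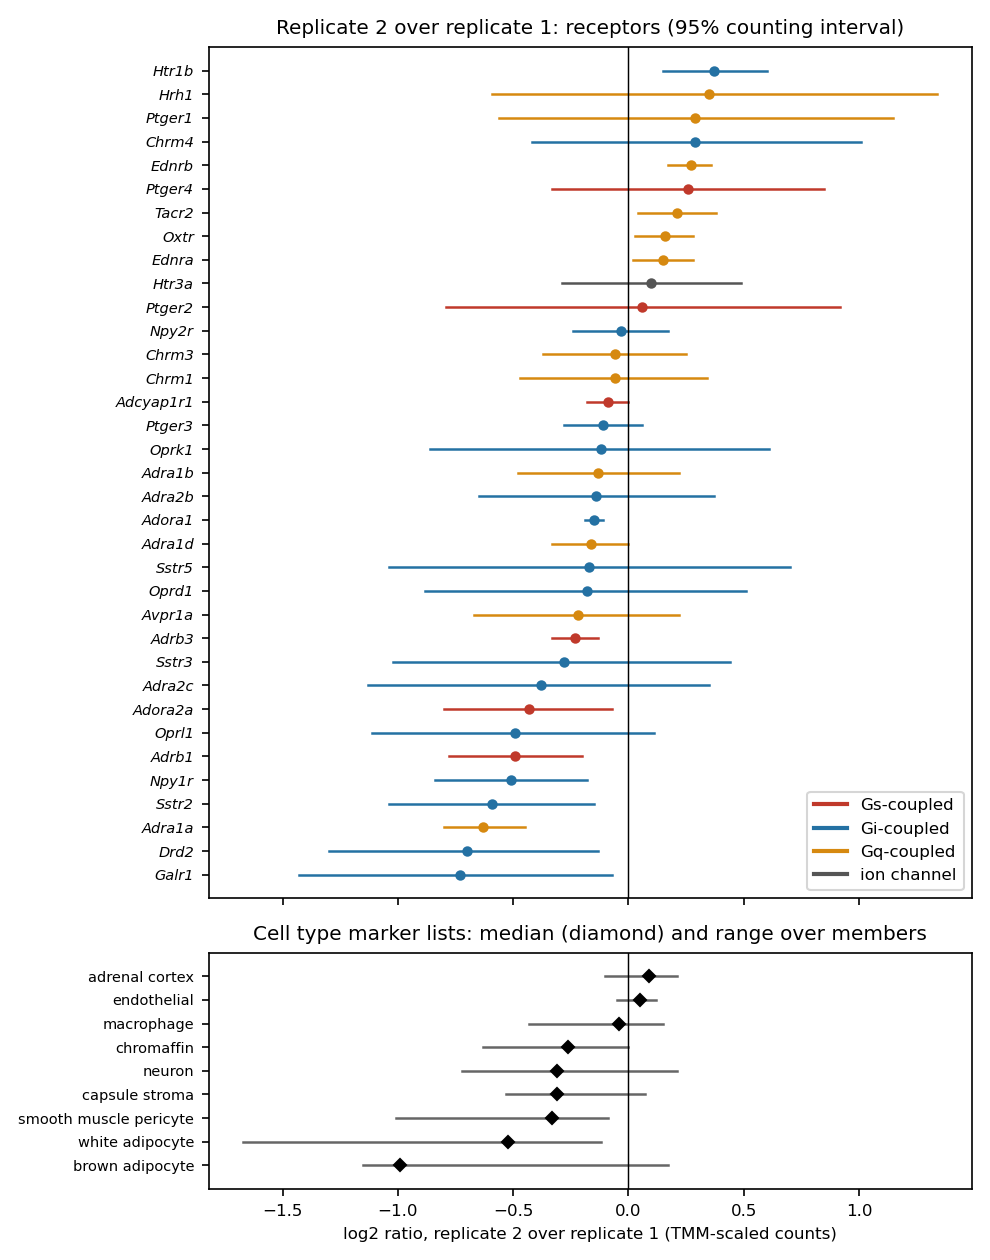
Upper panel: log2 ratio of replicate 2 over replicate 1 for receptors with a mean of 20 or more counts (1 receptor not plotted), with 95% counting intervals. Lower panel: median (diamond) and range (line) of the same ratio over marker genes of 9 cell types. Galr1 is lowest at -0.73 and Htr1b highest at 0.37, and the brown adipocyte median is -0.99.

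The quantifications were compared for receptors with a mean of 1 TPM or more in either. Receptors under this level were left out, among them Adora3, Avpr1b and Tacr1, whose counts differed as given above. Read-based TPM ran higher for protein-coding genes in general, by a median log2 difference of 0.84 in replicate 1 and 0.92 in replicate 2. After this centre was removed, 25 receptors differed by a median of -0.02 and -0.05. Of these, 0 of 25 were over 2-fold apart in the same direction in both libraries (background 1.13% of genes higher and 0.596% lower). With 25 receptors, a count of 0 does not set them apart from that background. Scaled to nuclear protein-coding genes alone, Adora1 stood at 192 and 179 TPM and 28 receptors reached 1 TPM in both libraries.

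Some receptors overlap other genes, and whether counting used the strand is not stated in the sources used here. Ptger4 overlaps Ttc33 at a mean of 19.8 TPM and Htr2b (3 counts in each library) overlaps Psmd1 at 37.4 TPM, each on the opposite strand. On the same strand, Galr3 overlaps Gcat and Adora3 overlaps Tmigd3 (0 counts in each library), so these low values are uncertain. Among the 4 highest receptors, Adora1 overlaps Mybph at 0.065 TPM and Adrb3 overlaps Gm45470 at 0.19 TPM.

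Motifs were counted on both strands of the 250 bases before 72 RefSeq starts of 58 receptors and before 32851 starts in all. The GC box (GGGCGG) was in 47.2% of receptor windows and 32.7% of all windows, and the TATA box (TATAAA) in 8.33% and 12.4%. A half-site for NR5A factors (AAGGTCA) was in 0% and 4.08%, and the cyclic AMP response element (TGACGTCA) in 1.39%, the window of Sstr2, and 1.55%. These matches describe letters only.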

How the data were processed

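Total RNA-seq of adrenal tissue was read from the tables the authors deposited for each of 2 libraries. The deposited alignment-based gene and transcript tables give TPM and expected counts (reads divided among transcripts), and their FPKM was not used. The deposited read-based transcript tables give TPM and estimated counts. Units are stated per the file headers. Labels and file notes name the build mm10 (GRCm38) with GENCODE M21. The aligner and quantifiers are not given in the sources used here. Signal tracks were not analysed here.

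Read-based values were summed per gene. Log2 ratios came from expected counts plus 0.5 over library sizes scaled by TMM factors (edgeR 4.0.16), with DESeq2 1.42.0 size factors as an alternative. Counts were rounded only for the scaling and the intervals. Intervals are exact Clopper-Pearson intervals at 95% of the share of a gene's counts in replicate 2, and cover counting error only. Quantifications were compared as log2(TPM + 0.1), centred on protein-coding genes. Procedures were tested on simulated data. With 1 group no p-value was computed.

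The members, gene lists, marker lists and receptor classes were chosen with earlier results of these data known. Members at a mean of 1 TPM or at 0 counts were named by rule, as were the 4 highest genes of a pathway list, the 3 highest of a marker list, and ligands or enzymes of a named receptor; other members were named after their values were seen. Alternatives changed the threshold, scaling, count minimum, pseudocount, quantification and library; 1, TPM over coding transcripts only, was added after seeing the data. Values of some single genes are not reported here; counts and sums over the receptors include them.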

Additional observations from a re-analysis of the deposited data

How the results depend on the processing

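No paired analysis was possible because the study has a single group. With a threshold of 2 TPM in place of 1 TPM, 12 receptors were present in both libraries instead of 20; other settings gave 20 to 28, and leaving out a library 20 to 21. Without a count minimum, 9 receptors differed by over 2-fold between replicates instead of 0. The median log2 ratio of the receptors, -0.12, was -0.05 with total-count scaling, -0.06 from TPM, -0.09 from read-based counts and -0.08 at a mean of 100 counts, so its gap to the median of protein-coding genes ran from -0.14 to -0.06. The ratio of Adora2a reversed from -0.43 to 0.06 when taken from TPM. Without Adora1, the shares of summed TPM were 17% for Gi, 46.3% for Gq, 35.1% for Gs and 1.52% for channels; leaving out a library gave 43.3% to 45.5%, 29.3% to 32.8%, 22.8% to 24.2% and 0.976% to 1.06%. Among the 25 receptors with a mean of 1 TPM or more in either quantification, 0 differed between quantifications under any of 3 alternatives. In the main setting the background was 1.13% of genes higher and 0.596% lower. Of 80 alternative ratios of single receptors, 73 stayed within their counting interval, while of 17 leading transcript shares, 10 moved beyond the spread between libraries with read-based TPM. For the rest, the cause was not tested. Depth limits the 21 receptors at 3 or fewer counts, whose absence from the tissue cannot be shown.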
